A study of Mus musculus with 24 samples.

Results

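The passage from the MII egg, arrested in the second meiotic division, to the zygote was followed in mouse libraries labelled Btg4-/-, for each gene whose mean reached 1 FPKM (fragments per kilobase of transcript, normalised for sequencing depth) in the zygotes or the MII eggs. This rule kept 7278 of the 23235 genes listed. Of these, 6360 reached 1 FPKM in both groups, 279 in the zygotes only and 639 in the MII eggs only. The gene just inside the limit was Cntn1, with means of 1 FPKM in zygotes and 0.76 in MII eggs, and the gene just outside was Zfp740, with 0.45 and 0.995. The series holds 24 libraries, 2 in each of 12 groups: zygotes, MII eggs, MI oocytes (first meiotic division) and GV oocytes (germinal vesicle stage) labelled Btg4-/-, Cnot6l-/- or WT. All groups carried the C57BL/6 background and the age of postnatal day 21. Zygotes came from mated females 24 h after hCG, whereas MII eggs came from oocytes matured for 16 h in culture, so fertilisation and this difference in origin cannot be told apart. The labels do not describe the Btg4 allele or the genotype of the fathers. Their culture protocol names U0126, an inhibitor of ERK activation, for some experiments, and the labels of these libraries do not list it.

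BTG4, of the BTG/Tob protein family, recruits mRNA to the CCR4-NOT complex, whose deadenylase subunits shorten poly(A) tails. The mouse oocyte stores mRNA during growth and removes much of it during meiotic maturation and after fertilisation, while the genome of the embryo is switched on. Loss of BTG4 is known to leave many maternal mRNAs undegraded in the egg and to stop embryos at the first cleavages. Libraries were made with Smart-Seq2, which primes cDNA on poly(A) tails, so transcript amount and tail length cannot be told apart in these values. In pooled cells, fewer cells and less RNA per cell cannot be told apart either.

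Btg4 transcripts were listed at 1205 and 764.8 FPKM in zygotes and at 1494 and 1111 FPKM in MII eggs labelled Btg4-/-, against group means of 663.6 FPKM in WT zygotes and 1035 FPKM in WT MII eggs. The transcript level therefore does not check the label. All 12 markers of the egg were among the genes analysed, and their lowest value in the 4 libraries was 3.47 FPKM (Pou5f1). Of 17 cumulus and granulosa cell markers 1 reached the limit, of 16 sperm markers 3, and of 12 blood and immune markers 2. The summed FPKM of the cumulus list were 5.35 and 2.70 in zygotes and 6.22 and 3.68 in MII eggs. Those of the sperm list were 8.07 and 9.87 in zygotes and 14.5 and 11.7 in MII eggs, with the protamine gene Prm3 and Tnp1 at 0 in all 4. Those of the blood list were 2.83 and 0.37 in zygotes and 2.84 and 0.44 in MII eggs, with the haemoglobin genes at 0.

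Summed over all genes, the libraries held 180847 and 111442 FPKM in zygotes and 194890 and 140755 FPKM in MII eggs. The groups overlapped, and the ratio of their means was 0.871 (exact two-sided permutation test, p = 0.667, where 2 against 2 libraries cannot go below 0.333). In both groups the library numbered 1 held more than that numbered 2, by 1.62 times in zygotes and 1.38 times in MII eggs. Taken by number, the ratio of zygotes to MII eggs was 0.928 for number 1 and 0.792 for number 2. Read depth is unknown, and so is the way the FPKM were scaled between libraries. Nothing in the labels says that the 2 libraries of a group came from separate animals, so p-values measure the spread between these libraries only.

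The change of the typical gene between the MII egg and the zygote could not be told from the spread between libraries. The median log2 change of the 7278 genes, zygotes minus MII eggs on the log2(FPKM + 1) scale, was -0.24, less than the SD of 0.32 between libraries of a group in the median level. The change was below 0 in 5373 genes and above 0 in 1904. With each library scaled by its median ratio the median became 0.033, a shift of 0.27. Single genes shifted by other amounts: the change of March7 was -3.02 as deposited and -3.05 after scaling, and that of Zp3 -2.44 and -2.09. A limma fit across all 24 libraries, with Benjamini-Hochberg adjustment over the 10884 genes tested, called 27 genes higher and 116 lower at an adjusted p under 0.05. These are 0.371% and 1.59% of the genes analysed, 1.96% in all, against 0.248% and 1.07% of all genes tested, 1.32% in all. Values of the 2 groups did not overlap in any of the 143, nor in 644 genes in all that were higher (8.85%) and 2000 that were lower (27.5%). With 2 against 2 libraries, order alone separates the groups with a probability of 0.333, so separation by itself does not show a change.

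The number of calls rested on few libraries. It was 11 higher and 66 lower without zygote library 1, 22 and 32 without zygote library 2, 4 and 14 without MII library 1, and 9 and 95 without MII library 2. Fitted to the 4 libraries alone, limma called 0 genes, with 467 at an unadjusted p under 0.05, against 1169 in the fit of all libraries. After median-ratio scaling 188 genes were higher (2.58%) and 125 lower (1.72%), 4.3% in all. Of all genes tested 1.87% were then higher and 1.19% lower, 3.07% in all. The share of higher calls was 60.1%, against 18.9% as deposited. Because the groups do not overlap in the 143 genes, a fit that leaves out a library cannot turn their direction. Among the higher calls, 7 were small RNA genes at 0 in both MII libraries, which reached the limit of 1 FPKM through the zygotes alone. Their p-values rest largely on groups without spread, so a kept call adds little for them. The 18 calls kept in all 4 fits that left out 1 library were 14 lower genes, Mos, Zp3, Uqcr11, Rpl41, Rpl38, March7, Slc35b3, Tada2a, Tmem66, Arl2, Leprot, R3hdml, Traf3ip1 and 2310043J07Rik, and 4 higher small RNA genes, Scarna8, Snora70, Snora64 and Snora16a.

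**Figure D1:**
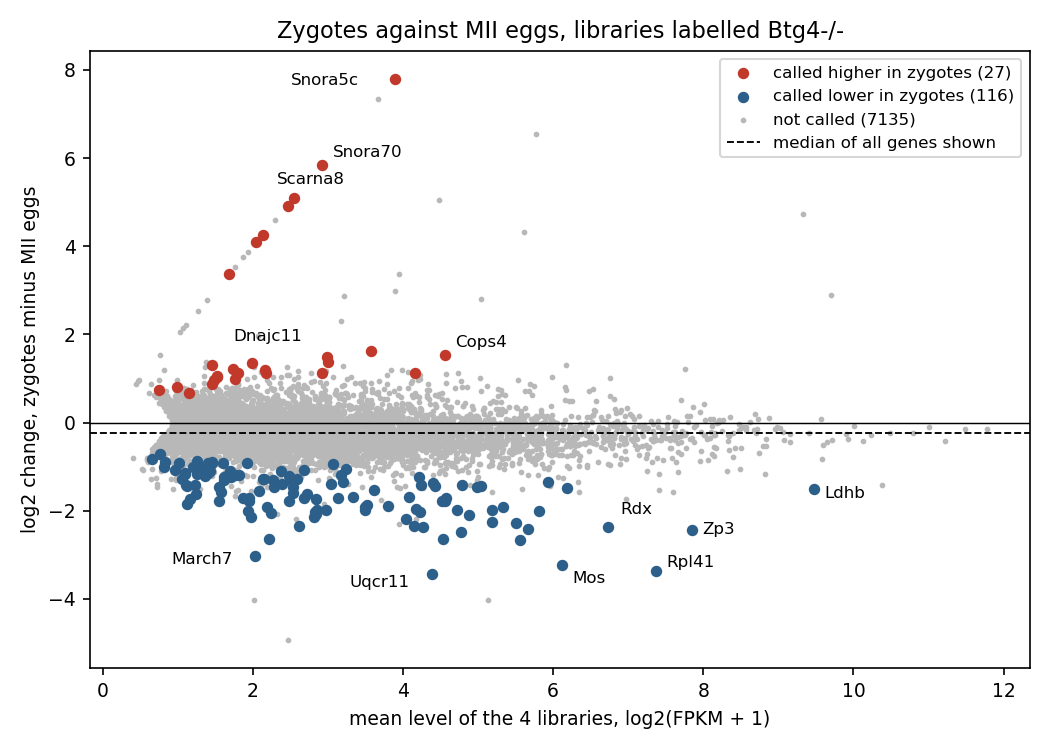
Log2 change of each of the 7278 genes (y axis, zygotes minus MII eggs) against its mean level in the 4 libraries labelled Btg4-/- (x axis, log2(FPKM + 1)). Red points are the 27 genes called higher in zygotes, blue points the 116 called lower, grey points the others, and the dashed line the median of -0.24. The line of points that climbs from the left at the top holds small RNA genes listed at 0 in both MII libraries.

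The genes that fell included several that define the egg. Mos, which encodes the kinase at the top of the MAPK cascade that holds the egg at MII, had 16.8 and 28.2 FPKM in zygotes and 186.1 and 241.5 FPKM in MII eggs. Both zygote libraries lay far below both MII libraries. The log2 change was -3.22 (SE 0.50, adjusted p = 0.0030). Of the 36 genes analysed for MII arrest, egg activation and cell cycle control, Mos was the one called, with a median of -0.34 over the list. Over all genes analysed, 1.96% were called. Mapk3, which encodes the ERK1 kinase of the same cascade, had 18.2 and 19.4 FPKM in zygotes and 42.6 and 41.3 FPKM in MII eggs, with no overlap and an adjusted p of 0.11. Ccnb1, encoding cyclin B1, had 257.2 and 66.3 FPKM in zygotes and 410.6 and 135.4 FPKM in MII eggs, and the groups overlapped.

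The 10 genes analysed of the zona pellucida, egg surface and cortical granules had a median log2 change of -1.53, and 4 of them were called lower, 40% of the list against 1.59% of all genes analysed. The fall was shared: the median was -1.96 in WT, with 5 called lower, and -1.79 in Cnot6l-/-, with 6. Of all genes analysed, 4.59% were called lower in WT and 31.7% in Cnot6l-/-. Zp3, a structural glycoprotein of the egg coat and the ligand first assigned to sperm binding, had 99.95 and 95.0 FPKM in zygotes and 529.1 and 540.7 FPKM in MII eggs. Its log2 change was -2.44 (SE 0.37, adjusted p = 0.0023), with library values within each group close to each other. Plat, the tissue plasminogen activator, had 20.7 and 21.1 FPKM in zygotes and 122.2 and 110.0 FPKM in MII eggs (log2 change -2.42, SE 0.41, adjusted p = 0.0043). Zp1, which cross-links the filaments of the coat, had 31.8 and 22.7 FPKM in zygotes and 135.2 and 92.2 FPKM in MII eggs (log2 change -2.02, adjusted p = 0.013). Astl encodes ovastacin, the cortical granule protease that cleaves ZP2 after fertilisation. It had 10.5 and 14.4 FPKM in zygotes and 54.1 and 49.5 FPKM in MII eggs (log2 change -1.99, adjusted p = 0.0042). None of these 4 genes had overlapping groups. The call of Plat was lost without MII library 1, and that of Zp1 without MII library 1 or zygote library 2. Zp2 had 159.4 and 77.6 FPKM in zygotes and 472.2 and 236.8 FPKM in MII eggs, lower in both libraries but with an adjusted p of 0.15. Oosp1, an oocyte-secreted protein, had 1733 and 1007 FPKM in zygotes and 1858 and 1295 FPKM in MII eggs, with overlap, so the genes of the list did not move by the same amount.

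Bub1b, which encodes the spindle checkpoint protein BUBR1, had 18.6 and 21.0 FPKM in zygotes and 86.8 and 68.9 FPKM in MII eggs (log2 change -1.92, adjusted p = 0.0099). It was the 1 gene called of 49 spindle, kinetochore and chromosomal passenger genes, whose median was -0.33, where 1.96% of all genes analysed were called. The call was lost without MII library 1 and without either zygote library. Ube2c, the ubiquitin-conjugating enzyme that works with the anaphase-promoting complex, and Anapc13, a subunit of that complex, were also called lower and were named after their values were seen. Ube2c had 17.6 and 9.86 FPKM in zygotes and 70.9 and 51.2 FPKM in MII eggs. Anapc13 had 12.3 and 5.31 FPKM in zygotes and 43.6 and 27.6 FPKM in MII eggs. Rdx, which encodes radixin, a linker of actin to the membrane, had 65.1 and 32.0 FPKM in zygotes and 289.6 and 197.4 FPKM in MII eggs (log2 change -2.36, adjusted p = 0.0023, lost without MII library 1).

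**Figure D2:**
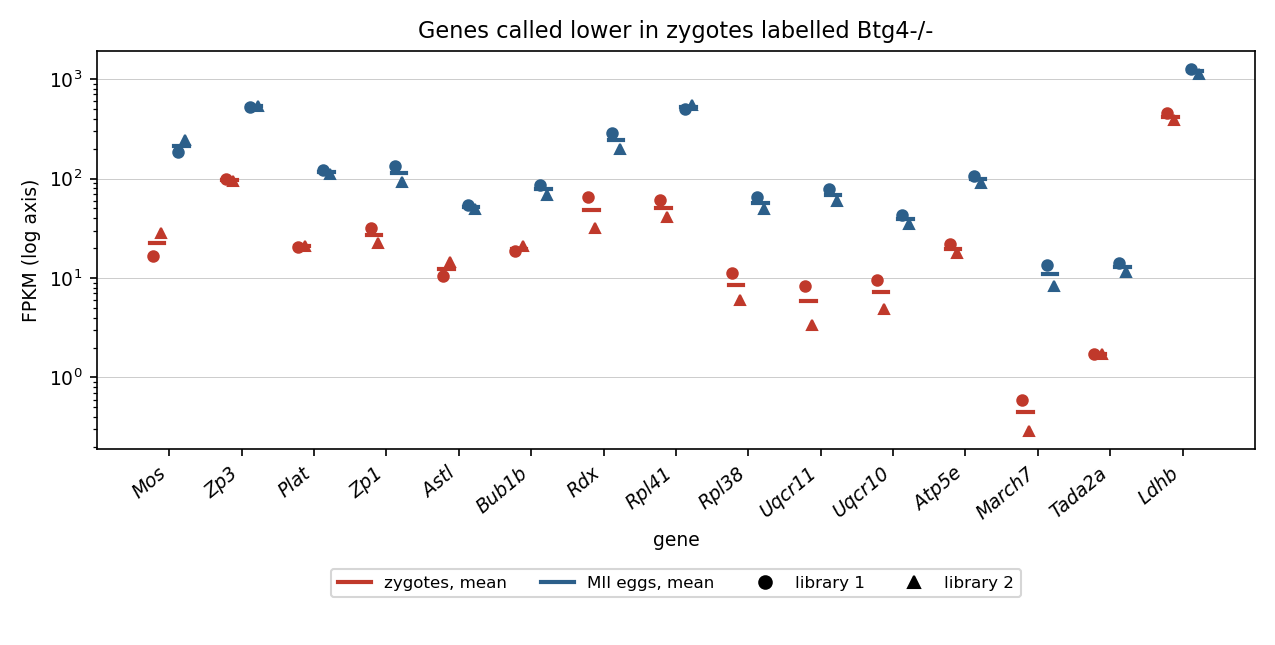
FPKM (log axis) of 15 genes called lower, with zygotes in red to the left of MII eggs in blue; circles and triangles are the libraries numbered 1 and 2 and bars the group means. In each gene both zygote libraries lie below both MII libraries, by means of 97.5 against 534.9 FPKM in Zp3 and 22.5 against 213.8 FPKM in Mos.

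A second set of genes that fell encodes small subunits of the respiratory chain. Of 80 nuclear-encoded genes of oxidative phosphorylation, 10 were called lower (12.5%, against 1.59% of all genes analysed) and 1, Ndufv1, higher. The 10 were Uqcr11, Uqcr10 and Uqcrq of complex III, Ndufa3, Ndufa5, Ndufa7, Ndufa11, Ndufa12 and Ndufv3 of complex I, and Atp5e of ATP synthase. Their longest transcripts ran from 421 bases (Atp5e) to 2661 bases (Ndufa11), against a median of 2737 bases for all genes analysed. Whether transcript length bears on these values was not tested. Uqcr11 had the most negative log2 change of all genes called: 8.26 and 3.40 FPKM in zygotes and 78.1 and 59.4 FPKM in MII eggs (log2 change -3.44, SE 0.42, adjusted p = 4.1e-04). Uqcr10 had 9.46 and 4.89 FPKM in zygotes and 42.8 and 35.1 FPKM in MII eggs (log2 change -2.34, adjusted p = 0.0033). Atp5e, the epsilon subunit, had 21.8 and 17.7 FPKM in zygotes and 107.2 and 90.4 FPKM in MII eggs (log2 change -2.27, adjusted p = 0.014). In all 3 both zygote values lay far below both MII values. The call of Uqcr11 alone among these 10 was kept whichever library was left out.

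Most genes of the respiratory chain were not called. The median log2 change of the 80 genes was -0.39, or -0.067 after scaling, against -0.24 and 0.033 for all genes analysed. Ndufv1, which carries the NADH-binding site of complex I, had 4.05 and 4.15 FPKM in zygotes and 1.1 and 1.29 FPKM in MII eggs (log2 change 1.22, adjusted p = 0.027). Ndufs3, another core subunit of complex I, had 29.1 and 19.5 FPKM in zygotes and 10.9 and 9.76 FPKM in MII eggs, with no overlap, an adjusted p of 0.15 as deposited and 0.0089 after scaling. No mitochondrially encoded transcript was among the genes analysed, so the subunits they encode were not analysed here.

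Of 83 ribosomal protein genes, 3 were called lower (3.61%, against 1.59% of all genes analysed) and none higher; after scaling 2 were lower and 2 higher. The median was -0.33 as deposited and 0.011 after scaling, against -0.24 and 0.033 for all genes analysed. Rpl41, the shortest protein of the large subunit, had 60.9 and 41.4 FPKM in zygotes and 503.6 and 555.0 FPKM in MII eggs (log2 change -3.37, SE 0.43, adjusted p = 6.3e-04). Rpl38 had 11.1 and 6.00 FPKM in zygotes and 65.3 and 49.4 FPKM in MII eggs (log2 change -2.65, adjusted p = 0.0014). Rps19 of the small subunit had 1.09 and 1.64 FPKM in zygotes and 7.12 and 8.67 FPKM in MII eggs, a call that was lost after scaling and in each of the 4 fits that left out a library. Rps16 had 71.5 and 69.3 FPKM in zygotes and 33.0 and 46.7 FPKM in MII eggs, the highest change among genes of the list with at least 5 FPKM, with an adjusted p of 0.41. Ribosomal protein genes have near-identical processed copies, among which reads can be split, so these values are uncertain.

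Among the 116 lower genes, 9 with roles in the secretory pathway were picked after the values were seen, with no list and no test behind them. They were the endoplasmic reticulum chaperones and disulfide isomerases Hspa5 (BiP), Pdia6, Txndc5, Erp44 and Dnajb11, the translocon subunit Ssr4, the oligosaccharyltransferase subunit Ost4, the cargo receptor Ergic3 and Tmem66, a regulator of calcium entry also called SARAF. Tmem66 had 10.5 and 10.5 FPKM in zygotes and 71.5 and 56.3 FPKM in MII eggs (log2 change -2.49, adjusted p = 6.9e-04). Hspa5 had 12.7 and 11.6 FPKM in zygotes and 38.3 and 28.2 FPKM in MII eggs (log2 change -1.37, adjusted p = 0.019). It was the 1 gene called among 8 stress and immediate early genes, where 1.96% of all genes analysed were called. 2 genes of secreted proteins also fell: Serpine2, a protease inhibitor, had 43.9 and 31.7 FPKM in zygotes and 107.7 and 87.3 FPKM in MII eggs, and Lamb1, a laminin chain, 5.72 and 7.84 FPKM in zygotes and 32.4 and 35.9 FPKM in MII eggs.

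Other large falls came from genes of varied roles. March7, a membrane-associated ubiquitin ligase, had 0.60 and 0.29 FPKM in zygotes and 13.6 and 8.29 FPKM in MII eggs (log2 change -3.02, adjusted p = 8.5e-04). Tada2a, an adaptor of histone acetyltransferase complexes, had 1.72 and 1.73 FPKM in zygotes and 14.2 and 11.5 FPKM in MII eggs (log2 change -2.34, SE 0.22, adjusted p = 2.2e-05). Slc35b3, a Golgi transporter of the sulfate donor PAPS, had 1.33 and 0.49 FPKM in zygotes and 10.9 and 10.3 FPKM in MII eggs (log2 change -2.64, adjusted p = 7.7e-05). All 3 kept their call whichever library was left out. Ldhb, which encodes lactate dehydrogenase B and was named after its values were seen, was the most abundant gene to fall, with 455.9 and 383.7 FPKM in zygotes and 1267 and 1131 FPKM in MII eggs (log2 change -1.52, adjusted p = 0.030). Over the 116 genes the median log2 change was -1.52. It exceeded 2 in size in 26 genes and 1 in 105, and 31 of the 116 had a zygote mean below 1 FPKM.

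The highest changes among the called genes were those of 7 small RNA genes, all listed at 0 in both MII libraries, so no fold change is given. Their p-values rest largely on groups in which every library is at 0 and has no spread, and are not given either. They were Scarna8, Snora5c, Snora16a, Snora26, Snora64, Snora70 and Snora74a. H/ACA small nucleolar RNAs guide pseudouridylation of ribosomal RNA, and the related small Cajal body RNAs guide modification of spliceosomal RNA. Most lie in introns of other genes, from which they are cut. The sequences of the pair whose libraries lay closest together are given because they are the features that were counted; capitals mark the ACA triplet that stands 3 bases before the 3′ end, the element that gives the class its name. They were read from the mm9 genome at the coordinates of the deposited table, chr4:86232357-86232474 on the minus strand for Scarna8 (118 bases, within Haus6) and chrX:71517831-71517959 on the plus strand for Snora70 (129 bases, within Rpl10).
Scarna8: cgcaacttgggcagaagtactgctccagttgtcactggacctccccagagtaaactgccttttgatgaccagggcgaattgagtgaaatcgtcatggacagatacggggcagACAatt
Snora70: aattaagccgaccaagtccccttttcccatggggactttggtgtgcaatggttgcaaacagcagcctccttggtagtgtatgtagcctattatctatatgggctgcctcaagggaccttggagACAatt

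Scarna8 had 36.7 and 29.7 FPKM in zygotes and was listed at 0 in both MII libraries and in the other 20 libraries of the series. Its host gene Haus6, a subunit of the augmin complex of the spindle, had 6.97 and 2.00 FPKM in zygotes and 4.78 and 1.91 FPKM in MII eggs, with overlap. Snora70 had 68.6 and 46.3 FPKM in zygotes and was above 0 in 1 of the other 20 libraries. Its host Rpl10 had 58.8 and 52.4 FPKM in zygotes and 93.4 and 76.0 FPKM in MII eggs (adjusted p = 0.54), so host and small RNA did not rise together. Snora64, within Rps2, had 76.9 and 10.8 FPKM in zygotes, while Rps2 had 80.7 and 118.2 FPKM in zygotes and 138.7 and 171.2 FPKM in MII eggs. Snora16a had 17.3 and 4.85 FPKM in zygotes, and neither it nor Snora64 was above 0 in the other 20 libraries. Snora26 had 32.1 and 7.83 FPKM, Snora5c 170.6 and 288.6 FPKM and Snora74a 25.2 and 13.1 FPKM in zygotes, and these 3 were above 0 in 2, 2 and 8 of the other 20 libraries. Among those, Snora5c reached 248.3 FPKM in WT GV library 1. In WT zygote library 1, Snora26 had 8.57 FPKM and Snora74a 11.8 FPKM.

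The detection of small RNA genes differed between the groups as a whole. Of 114 snoRNA and scaRNA genes in the table, 23 and 25 were above 0 in the zygote libraries labelled Btg4-/-, against 5 and 11 in the MII libraries. The counts were 12 and 10 in Cnot6l-/- zygotes and 14 and 17 in WT zygotes, and 2 to 15 in the other libraries outside these groups. Of the 29 such genes analysed here, 7 were called. Among the genes analysed, 21 small RNA genes were at 0 in both MII libraries and reached the limit of 1 FPKM through the zygotes alone, so their higher mean in zygotes was fixed by the limit. Among those not called, Snora47 had the highest level, with 6583 and 1660 FPKM in zygotes and 215.7 and 70.2 FPKM in MII eggs (adjusted p = 0.30), and Snora75 had 321.9 and 80.3 FPKM in zygotes with both MII libraries listed at 0 (adjusted p = 0.076). Both were named after their values were seen. These genes are short, with 101 to 198 bases in the 7 called, and mature small nucleolar RNAs carry no long poly(A) tail, so their FPKM are not a measure of the whole pool.

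**Figure D3:**
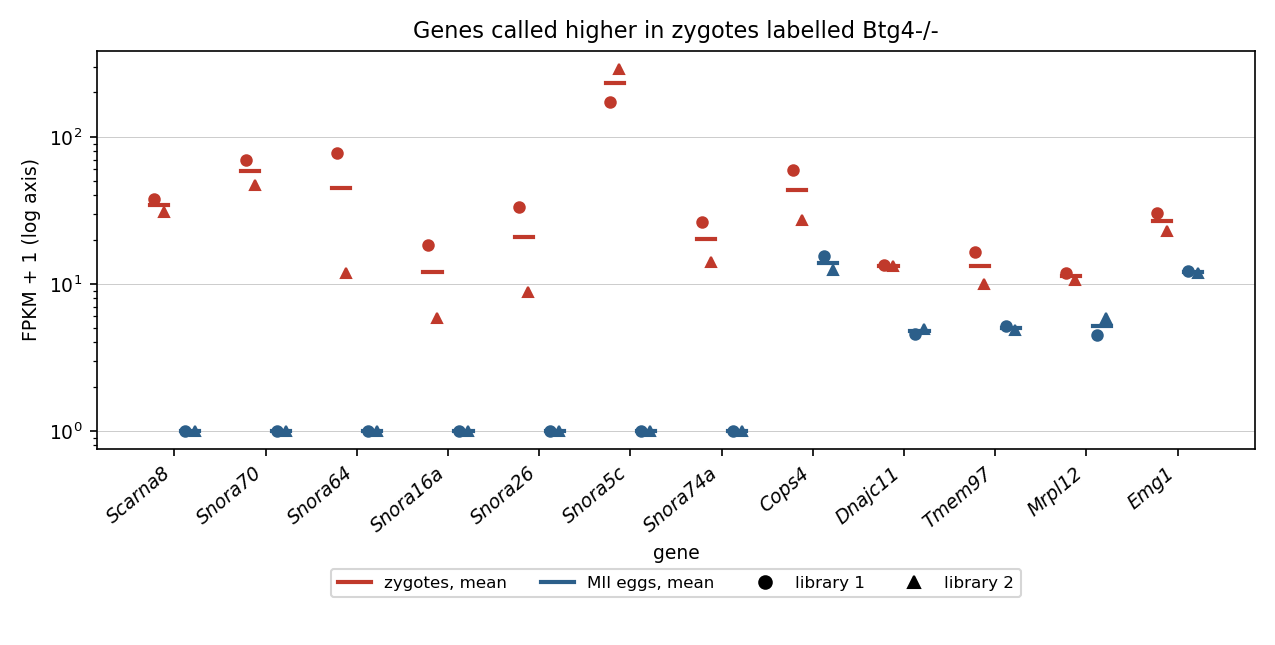
FPKM + 1 (log axis) of the 7 small RNA genes and 5 of the other genes called higher, with zygotes in red to the left of MII eggs in blue; circles and triangles are the libraries numbered 1 and 2 and bars the group means. The 7 small RNA genes stand at 1 in both MII libraries because they were listed at 0 FPKM, while the 5 others differ by 2.32 to 3.28 times in the means.

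The other 20 genes that rose did so by less, with a median log2 change of 1.12 and a range of 0.68 to 1.62. Cops4, a subunit of the COP9 signalosome, had 58.7 and 26.0 FPKM in zygotes and 14.5 and 11.4 FPKM in MII eggs (log2 change 1.54, SE 0.36, adjusted p = 0.047). Dnajc11, a J-domain protein of mitochondria, had 12.4 and 12.2 FPKM in zygotes and 3.58 and 3.96 FPKM in MII eggs (log2 change 1.48, adjusted p = 0.0042). Tmem97, the sigma-2 receptor, had 15.5 and 9 FPKM in zygotes and 4.17 and 3.82 FPKM in MII eggs (log2 change 1.36, adjusted p = 0.031). The groups did not overlap in any of the 3. Mrpl12, a protein of the mitochondrial ribosome, had 10.8 and 9.70 FPKM in zygotes and 3.48 and 4.85 FPKM in MII eggs (log2 change 1.13, adjusted p = 0.018). Emg1, a methyltransferase of ribosomal RNA, had 29.3 and 22.0 FPKM in zygotes and 11.3 and 10.9 FPKM in MII eggs (log2 change 1.13, adjusted p = 0.032). Each of these 5 calls was lost when at least 1 library was left out, MII library 1 in every case.

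The remaining 15 included 1110012L19Rik, with a zygote mean above 10 FPKM, and 14 genes with zygote means under 10 FPKM. Among these were the splicing factor Usp39, with 6.38 and 5.04 FPKM in zygotes and 1.82 and 2.37 FPKM in MII eggs, Pih1d1, a subunit of the R2TP chaperone complex, with 2.85 and 3.78 FPKM in zygotes and 0.60 and 0.90 FPKM in MII eggs, and the glycolytic enzyme Tpi1, with 4.47 and 3.86 FPKM in zygotes and 1.04 and 1.77 FPKM in MII eggs. Of the 20, 5 reached 1 FPKM in the zygotes only.

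The machinery that acts on maternal mRNA held 1 call. None of 17 genes of the CCR4-NOT, BTG/Tob and PAN group was called (median -0.24), and none of 29 for decapping, exonucleases and decay recruiters (median -0.24). With 1.96% of all genes analysed called, lists of this size hold few or no calls at that share, and after scaling 1 gene of decapping and decay was called higher. Cnot6l, a deadenylase subunit, had 40.3 and 12.1 FPKM in zygotes and 44.7 and 15.4 FPKM in MII eggs, so that the libraries differed more within than between the groups. Cnot7, another deadenylase subunit, had 95.4 and 24.9 FPKM in zygotes and 92.0 and 34.9 FPKM in MII eggs. Of 26 genes for cytoplasmic polyadenylation, poly(A) binding and mRNA storage, 1 was called lower (median -0.24). It was Papola, the canonical poly(A) polymerase, with 5.98 and 3.79 FPKM in zygotes and 17.9 and 10.3 FPKM in MII eggs (log2 change -1.34, adjusted p = 0.038), a call lost without MII library 1 and without either zygote library. Zar1l, a relative of the maternal RNA-binding protein ZAR1, moved the other way, with 104.1 and 78.1 FPKM in zygotes and 43.8 and 42.9 FPKM in MII eggs (log2 change 1.04, adjusted p = 0.18 as deposited and 0.011 after scaling).

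None of 54 oocyte-specific and maternal-effect genes was called. With 1.96% of all genes analysed called, a list of this size holds few or no calls at that share. The change was below 0 in 50 of the 54, against 5373 of all 7278, and the median was -0.49 as deposited and -0.16 after scaling. Ooep, of the subcortical maternal complex, had 89.0 and 51.6 FPKM in zygotes and 269.1 and 195.7 FPKM in MII eggs (adjusted p = 0.087). H1foo, the oocyte linker histone, had 657.9 and 1007 FPKM in zygotes and 2005 and 2357 FPKM in MII eggs (adjusted p = 0.19). Both showed no overlap but missed the threshold. The 11 genes analysed for zygotic genome activation held no call and a median of -0.17. Among them Npm1, a nucleolar chaperone, had 400.1 and 209.8 FPKM in zygotes and 444.9 and 277.9 FPKM in MII eggs. Of the 37 genes of that list, 6 were at 0 in all 4 libraries, among them Zscan4e, Tcstv1 and Tcstv3, markers of the embryo at the 2-cell stage.

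No gene was called among 43 of DNA replication and licensing (median -0.22), 10 of meiotic cohesin and recombination (median -0.16), 33 proteasome subunits (median 0.014), 52 translation factors (median -0.063), 42 core splicing factors (median -0.11), 19 RNA polymerase subunits (median -0.14) or 8 replication-dependent histone genes (median 0.032). At the share of 1.96% called over all genes analysed, few or no calls fall in lists of these sizes. After scaling, 4 of replication and licensing, 3 of the proteasome, 3 translation factors, 3 splicing factors and 1 RNA polymerase subunit were called higher, 1 translation factor and 1 cohesin gene lower, and the proteasome median was 0.37. Psmc2, an ATPase of the proteasome base, had 13.5 and 8.69 FPKM in zygotes and 4.42 and 4.09 FPKM in MII eggs (adjusted p = 0.076 as deposited and 0.0048 after scaling). Of 67 mitochondrial ribosomal proteins, Mrpl12 was called higher and Mrps24 and Mrps36 lower (median -0.0047). Of 17 mitochondrial import genes, Timm17b was called lower (median -0.21). The 3 sperm, 2 blood and 1 cumulus markers analysed held no call.

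**Figure D4:**
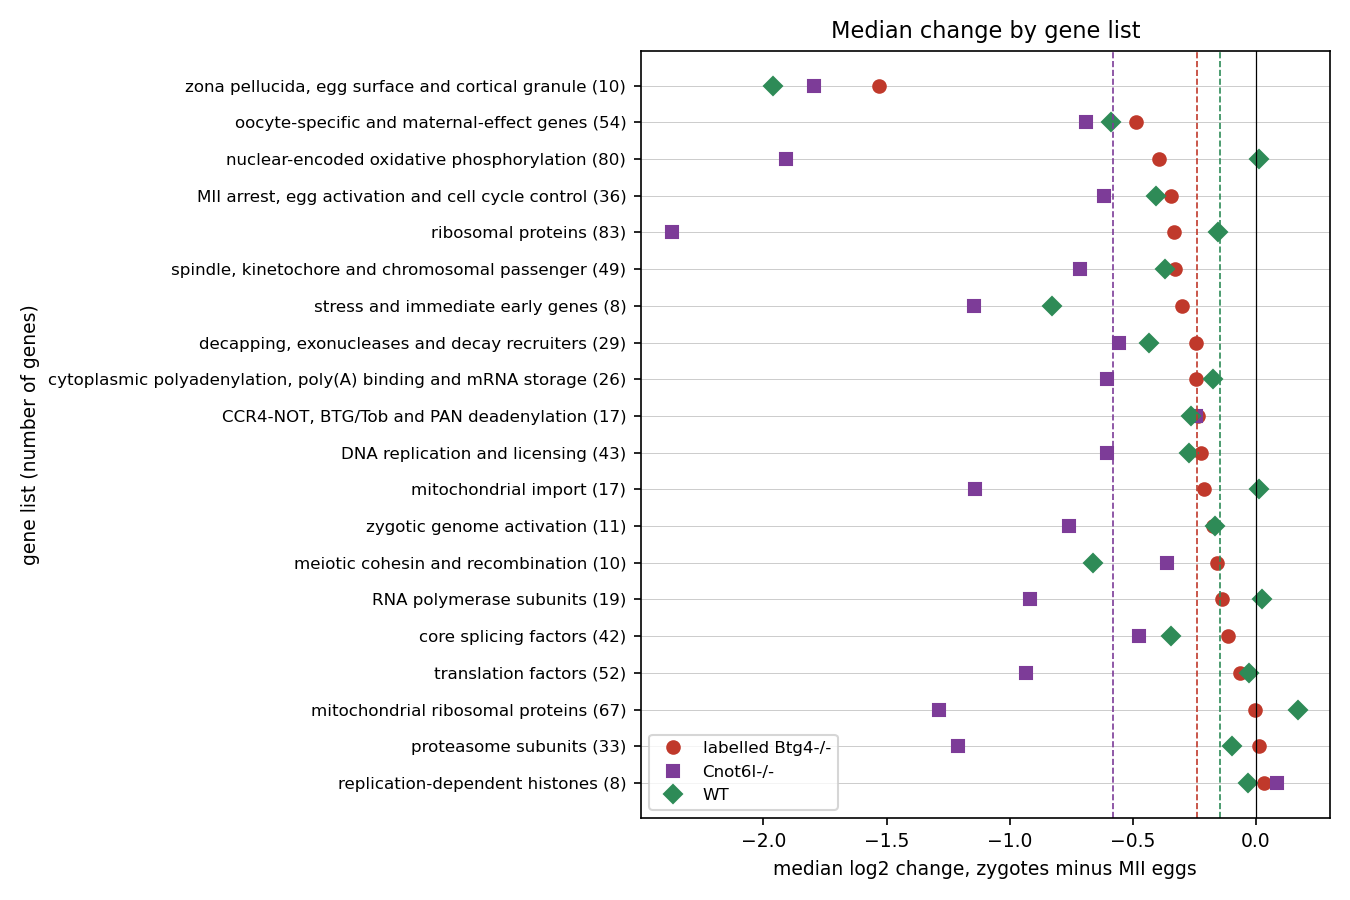
Median log2 change (x axis, zygotes minus MII eggs) of the 20 gene lists with at least 8 genes analysed (y axis, number of genes in brackets) in libraries labelled Btg4-/- (red circles), Cnot6l-/- (purple squares) and WT (green diamonds); dashed lines give the medians of all 7278 genes in the same colours. The list of the zona pellucida, egg surface and cortical granules lies lowest in the libraries labelled Btg4-/-, at -1.53. Its medians in WT and Cnot6l-/- were lower still, at -1.96 and -1.79.

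The same step was then compared between genotypes, which share no library. The question was whether a gene changed between MII egg and zygote by another amount than in WT. The difference between the changes passed the threshold in 16 genes (0.22% of those analysed and 0.184% of all tested), 8 with the change labelled Btg4-/- above that in WT (0.11%, and 0.101% of all tested) and 8 below (0.11%, and 0.0827% of all tested). The count depended on the processing: it was 47 with a pseudocount of 0.1, 148 after scaling and 1 in a fit of the 8 libraries alone. Without 1 library it ran between 4 (WT MII library 2) and 45 (WT zygote library 2), with 5 without MII library 1 labelled Btg4-/- and 7 without the first WT library of either group. The 8 above were Scarna8, Snora16a, Snora64, Snora70, Tceal8, Alyref2, Slc25a17 and Gstp2. The 8 below were Ost4, Car9, Lsm10, Slc12a8, Samd10, Glyr1, Grb7 and 2310043J07Rik.

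Of the 8 genes above, 4 are small RNA genes at 0 in both MII libraries labelled Btg4-/-, which reached the limit through the zygotes alone. Their p-values rest largely on groups without spread, so these 4 are no support for a difference between genotypes. The other 4 were called lower in WT zygotes and not called in those labelled Btg4-/-. Slc25a17, a peroxisomal carrier of coenzyme A and other nucleotides, had 4.97 and 2.41 FPKM in zygotes and 4.97 and 2.30 FPKM in MII eggs labelled Btg4-/-. In WT it averaged 1.32 ± 0.86 FPKM in zygotes and 18.1 ± 1.14 FPKM in MII eggs (SD, n = 2 each). The difference between the log2 changes was 3.11 (SE 0.51, limma adjusted p = 0.012). Tceal8 differed by 4.47 and Alyref2, a paralogue of an mRNA export adaptor, by 3.25, each with a WT MII mean above 15 FPKM and values below 3 FPKM in all 4 libraries labelled Btg4-/-. Ost4 stood on the other side. It had 13.7 and 10.8 FPKM in zygotes and 46.1 and 38.4 FPKM in MII eggs labelled Btg4-/-, whereas in WT it averaged 16.7 ± 5.56 FPKM in zygotes and 6.76 ± 1.61 FPKM in MII eggs. The difference was -2.88 (SE 0.52, limma adjusted p = 0.028). Car9, a carbonic anhydrase, differed by -2.38, with means of 9.13 FPKM in zygotes and 13.2 FPKM in MII eggs labelled Btg4-/- and of 4.61 and 0.435 FPKM in those of WT.

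Of the 116 genes that fell, 55 were also called lower in WT, which is 47.4% of the 116 and 16.5% of the 334 genes called lower there. In WT 6.11% of the genes analysed were called, 1.53% higher and 4.59% lower. Of all genes tested it was 4.25%, with 1.04% higher and 3.22% lower. Another 4 of the 116 fell by more than in WT by the test of the difference, and none fell by less. In the other genes the difference in change did not pass the threshold, which does not show that it was equal. The 116 were called by the change labelled Btg4-/-, a term of this difference, so the choice favoured a larger fall than in WT. Mos averaged 8.87 ± 8.17 FPKM in WT zygotes and 175.7 ± 50.3 FPKM in WT MII eggs. Its difference between the changes was 1.21 (SE 0.71, adjusted p = 1.0, limma). Zp3 averaged 15.6 ± 3.18 FPKM in WT zygotes and 98.6 ± 43.0 FPKM in WT MII eggs, a level below that labelled Btg4-/- at both stages, with a difference between the changes of 0.085 (SE 0.52). Uqcr10 had no such fall in WT, with 13.2 ± 4.67 FPKM in zygotes and 11.9 ± 5.30 FPKM in MII eggs, and a difference of -2.51 that missed the threshold (SE 0.53, limma adjusted p = 0.076).

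Against Cnot6l-/- the difference was of another size. The change labelled Btg4-/- lay above that in Cnot6l-/- in 1008 genes (13.8% of those analysed, 11.5% of all tested) and below it in 8 (0.11%, and 0.0735% of all tested). Over the 1008 the median levels were 4.39 FPKM in zygotes and 3.62 FPKM in MII eggs labelled Btg4-/-, against 1.43 FPKM in zygotes and 7.92 FPKM in MII eggs of Cnot6l-/-. In WT they were 1.39 FPKM in zygotes and 0.803 FPKM in MII eggs. The median changes were 0.21 labelled Btg4-/-, -1.79 in Cnot6l-/- and 0.31 in WT. Over all 7278 genes they were -0.24, -0.58 and -0.14. The 1008 were chosen by the difference, so the gap between Btg4-/- and Cnot6l-/- in their medians and calls follows in part from the choice. In Cnot6l-/- zygotes 31.7% of the genes analysed were called lower than in their MII eggs (28.7% of all tested) and 0.0412% higher (0.0735% of all tested). Of the 1008, 967 were among the lower ones, 26 were called higher in libraries labelled Btg4-/- and 4 lower. The 1016 genes above or below became 629 without Cnot6l-/- zygote library 1 and 1163 without library 2, the lowest and the highest of the 8 fits that left out a library, and 413 in a fit of the 8 libraries alone.

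Timm17a, a channel subunit of the mitochondrial import machinery, is one of these genes. It had 122.1 and 71.2 FPKM in zygotes and 54.3 and 51.8 FPKM in MII eggs labelled Btg4-/-, against 6.25 ± 1.27 FPKM in zygotes and 76.6 ± 17.3 FPKM in MII eggs of Cnot6l-/- (SD, n = 2 each). The difference between the log2 changes was 4.22 (SE 0.62, limma adjusted p = 2.7e-04). Eif1ax, a translation initiation factor, differed by 4.25, the SNARE protein Vamp8 by 4.26, the splicing factor Bud31 by 4.15 and Zar1l by 4.36. In all 5 the zygote mean labelled Btg4-/- was higher than that of Cnot6l-/-, while the MII mean was lower. Ribosomal proteins had 48 of 83 genes above and none below, with medians of -0.33 labelled Btg4-/- and -2.37 in Cnot6l-/-. Oxidative phosphorylation had 36 of 80 above, with medians of -0.39 and -1.91, mitochondrial ribosomal proteins 31 of 67, with -0.0047 and -1.29, and the proteasome 14 of 33, with 0.014 and -1.21. None of the 10 genes of the zona pellucida and egg surface differed by this test, with medians of -1.53 labelled Btg4-/- and -1.79 in Cnot6l-/-. With 14% of all genes analysed differing, a list of 10 holds few or no such genes, so this does not set the list apart.

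The 8 genes below included Rdx, Tada2a, Pnpla3, Slc12a8, Traf3ip1, Ins2 and Pdgfrl. Rdx averaged 315.4 ± 53.3 FPKM in zygotes and 379.0 ± 79.8 FPKM in MII eggs of Cnot6l-/-, so that the fall labelled Btg4-/- was larger by 2.11 on the log2 scale (SE 0.50, limma adjusted p = 0.0092). In WT, Rdx averaged 75.9 ± 15.1 FPKM in zygotes and 341.2 ± 16.2 FPKM in MII eggs. Tada2a averaged 6.09 ± 1.66 FPKM in zygotes and 14.3 ± 1.79 FPKM in MII eggs of Cnot6l-/-, a difference of -1.22 (SE 0.31, limma adjusted p = 0.016). Pnpla3, a lipid droplet lipase, had 14.6 and 9.83 FPKM in zygotes and 44.8 and 26.5 FPKM in MII eggs labelled Btg4-/-. It averaged only 0.020 FPKM in zygotes and 0.060 FPKM in MII eggs of Cnot6l-/-, so it stood near 0 at both stages there.

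**Figure D5:**
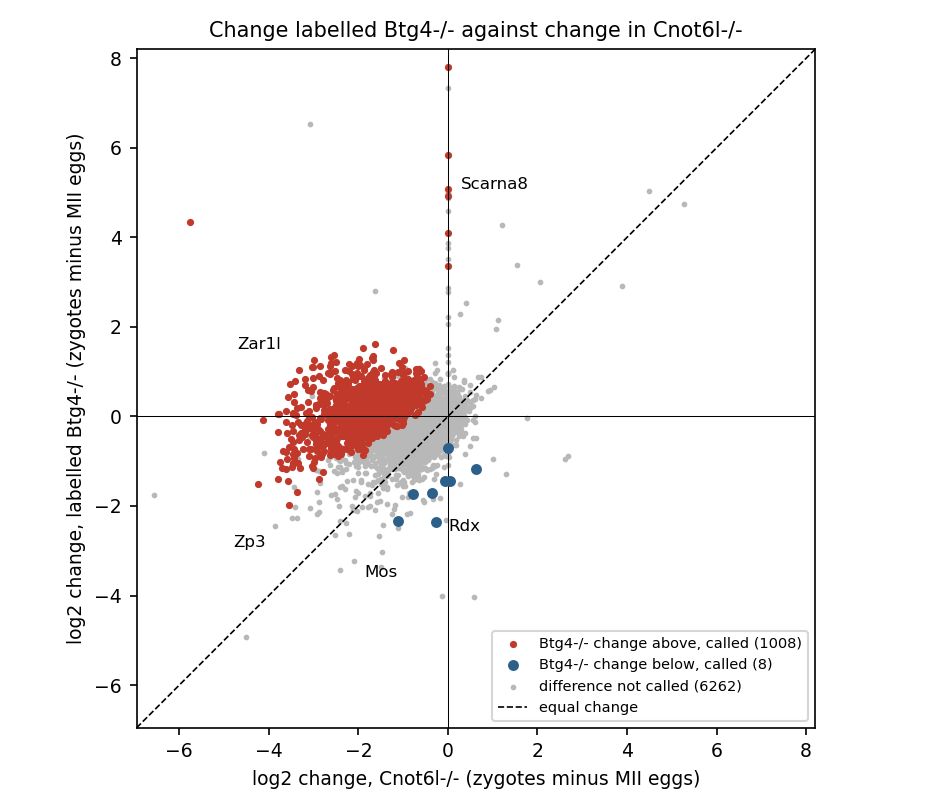
Log2 change, zygotes minus MII eggs, labelled Btg4-/- (y axis) against that in Cnot6l-/- (x axis) for the 7278 genes. Red points are the 1008 genes whose change labelled Btg4-/- was above by the test of the difference, blue points the 8 below, grey points the others, and the dashed line marks equal change; most red points lie left of 0 on the x axis and close to 0 on the y axis.

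Both sets of called genes were seen from this side as well. They were called by the change labelled Btg4-/-, which is also a term of the tested difference. The choice therefore favoured a difference above 0 for the genes that rose and below 0 for those that fell. All 20 genes that rose, small RNA genes aside, differed from Cnot6l-/- by this test, where all 20 changes were below 0 (median -1.69). In WT 19 of the 20 were above 0 (median 0.53) and none differed. Cops4, for example, averaged 7.79 ± 0.28 FPKM in zygotes and 32.8 ± 11.1 FPKM in MII eggs of Cnot6l-/-, and 6.17 ± 3.25 FPKM in zygotes and 1.47 ± 0.078 FPKM in MII eggs of WT (SD, n = 2 each). Of the 116 that fell, 96 were also called lower in Cnot6l-/- (82.8% of the 116, 4.16% of the 2309 called there), while 7 fell by more and 4 by less by the test of the difference.

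The earlier course in libraries labelled Btg4-/- placed this step in order. The 116 genes that fell had median levels of 33.7 FPKM in GV oocytes, 33.9 in MI oocytes, 10.1 in MII eggs and 2.58 in zygotes. The 20 genes that rose had 46.5 FPKM in GV oocytes, 34.8 in MI oocytes, 1.41 in MII eggs and 4.13 in zygotes, so that they stood in zygotes well below their GV level. Both sets were called by the change from MII eggs to zygotes, so their medians at these stages follow in part from the choice. All 7278 genes had 15.2, 14.2, 4.62 and 3.87 FPKM at these stages. Mos averaged 561.2 FPKM in GV oocytes and 458.8 FPKM in MI oocytes, and Emg1, among the genes that rose, 376.4 and 183.3 FPKM.

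The 3′ UTRs of the genes that fell were described in the gencode annotation of mm9. They had a median length of 652.5 bases (112 of the 116 genes had one), against 1043 bases for all genes analysed, and transcripts of 1906.5 against 2737 bases. Shares of UTRs with a motif on the sense strand were lower, beside the shorter length: 45.5% against 63.9% for the cytoplasmic polyadenylation element (TTTTAT or TTTTAAT), 15.2% against 24.9% for the Pumilio motif TGTANATA and 22.3% against 27.9% for the AU-rich motif TATTTAT. Within the last 100 bases, where cytoplasmic polyadenylation elements act, the share was 23.2%, against 21.8%. Of the 27 genes that rose, 7 are small RNA genes without a UTR, so the values rest on 20 genes. Their UTRs had a median length of 518.5 bases. The shares were 30% for the cytoplasmic polyadenylation element, 0% for the Pumilio motif and 10% for the AU-rich motif. Within the last 100 bases the share of the cytoplasmic polyadenylation element was 10%. Plat and Rdx are shown because both fell by over 2 on the log2 scale and carry the element close to the end of the transcript; capitals mark the element. The sites lie at chr8:23893226-23893255 (Plat) and chr9:51896750-51896779 (Rdx) of mm9, both on the plus strand, and a match does not show that the site is used.
Plat: taTTTTAATctattttagtttttactttgt
Rdx: aaTTTTATgttgtacaagtaaattacaatt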

How the data were processed

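RNA was sequenced from mouse oocytes, eggs and zygotes, with 2 libraries in each of 12 groups. Per the submitters' processing notes, the tools were CASAVA 1.8, TopHat2 2.0.11, Bowtie2 2.1.0 and Cufflinks 2.2.1, and the genome build was mm9. For 23235 genes the authors deposited FPKM, given with 2 decimals. The scaling of FPKM from library to library is not described in the labels. The labels give the oocytes per library differently, as 100 in the extraction protocol and 2 in the series text. The table of all libraries was used; single-library tables were left aside because some of their lines run together. Columns of MI oocytes carry other numbers than their titles and were assigned to their group only. Depth is unknown, so the errors given rest on the spread between libraries. An SD is that of the 2 libraries of a group. An SE comes from the limma fit, which pools the spread within all 12 groups, and is not the error of the compared libraries alone.

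The test took in 10884 genes, those whose mean reached 1 FPKM in any of the 12 groups. It was limma 3.58.1 under R 4.3.3 on log2(FPKM + 1), with 1 mean per group, 12 residual degrees of freedom, variance trend, two-sided moderated tests and Benjamini-Hochberg adjustment over all genes tested. The pseudocount shrinks the changes of low genes. Differences between genotypes are interaction contrasts of that fit. Alternatives were a pseudocount of 0.1, no filter, a test of the analysed genes only, median-ratio scaling (over the 3677 genes that exceed 1 FPKM in each library), the compared libraries alone, the library number as a block, the MI libraries left out, and each library left out in turn; a lone library is then assumed to vary like the other groups. Named genes are the 15 highest and lowest called with at least 10 FPKM and no overlap, the 3 highest and lowest of each of 24 lists with at least 5 FPKM, the 6 highest and lowest of each difference, Btg4 and Cnot6l, of which the text gives a subset. Zp2, Astl, Cnot7, Serpine2, Lamb1, host genes and small RNA genes were named after their values were seen, as were others where the text says so or where they complete a count. Genes and lists were chosen with earlier results of these data known. The fit was tested on simulated data. Summed FPKM were compared by an exact permutation test over libraries. UTR motifs were sought where the UTR had 50 bases or more. Tables and figures used Python 3.11.15, numpy 2.4.6, pandas 2.3.3, scipy 1.17.1 and matplotlib 3.10.9.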

Additional observations from a re-analysis of the deposited data

Results flagged for a closer look

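Changes that differed between the libraries labelled Btg4-/- and another genotype, by the interaction test, are collected here with their values. The count was 16 against WT and 1016 against Cnot6l-/-, of 7278 genes. Against WT, the change labelled Btg4-/- was lower for Ost4 (by -2.88 on the log2 scale) and Car9 (-2.38), and higher for Scarna8 (5.09), Tceal8 (4.47), Alyref2 (3.25) and Slc25a17 (3.11). Against Cnot6l-/-, it was lower for Rdx (-2.11), Pnpla3 (-1.39) and Tada2a (-1.22), and higher for Scarna8 (5.09), Zar1l (4.36), Vamp8 (4.26), Eif1ax (4.25), Timm17a (4.22) and Bud31 (4.15). Scarna8 was listed at 0 in every library but the 2 zygote libraries labelled Btg4-/-, so its differences depend on the pseudocount and rest largely on groups without spread.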

How the results depend on the processing

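The 27 higher and 116 lower calls became 188 and 125 after median-ratio scaling, 16 and 109 with the library number as a replicate block without the MI libraries, and 9 and 42 with the MI libraries left out. They became 0 and 0 with the 4 libraries alone (467 at an unadjusted p under 0.05) and 0 and 0 with these scaled (578). The block with the 4 libraries alone gave 5 and 25 (3019 at an unadjusted p under 0.05). Leaving out 1 library gave 4 to 22 higher and 14 to 95 lower. The other planned settings kept each count within 1.5 times. The 16 genes that differed from WT became 47 with a pseudocount of 0.1, 10 without a filter, 148 after scaling, 1 with the libraries compared alone (298 at an unadjusted p under 0.05), 4 without the MI libraries, 8 with a block and 1 with scaling in the libraries compared, and 4 to 45 without 1 library. The 1016 that differed from Cnot6l-/- became 413 with the libraries compared alone, 505 with these scaled, and 629 to 1163 without 1 library. The cause of these shifts was not tested. The last block and the last scaling were chosen after seeing the data. The numbers are not shown to pair the libraries: deviations of libraries with the same number correlated at 0.706 between MII eggs and zygotes, but at -0.153 between GV oocytes and MII eggs and -0.27 between GV oocytes and zygotes. The median change ran between -0.48 and 0.023 without 1 library, and the ratio of summed FPKM between 0.664 and 1.08. With 2 libraries a group and FPKM without depth, genes of low level and changes under 1 on the log2 scale are the least certain.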
